A study of Mus musculus with 9 samples.

Results

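The genes described here encode the chaperones and folding enzymes of the endoplasmic reticulum (ER), the sensors and transcription factors of the unfolded protein response, the machinery of ER-associated degradation (ERAD) and the core of the translocon, the membrane channel through which new secretory proteins enter the ER. They were given as a list of names, with no threshold on their values. Of the 38 names Vimp is an older symbol of Selenos, leaving 37 genes among the 55906 rows of the deposited table. A gene was tested where it reached 1 TPM in at least 3 libraries. TPM is the length-corrected share of a gene among all transcripts of a library. Levels can therefore be set side by side between genes, and since the shares have a common sum, a gene that takes more leaves less for others. Of the 37 genes 36 passed, as did 11260 of all genes. Edem3 lay just inside this limit, at 0.79 to 2.09 TPM, and Derl3 lay outside it, listed at 0 in 8 libraries and at 0.21 TPM in LPS+Pilo replicate 1. Derl3 was therefore not tested.

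The cells were BV2, a wildtype, immortalized line of mouse microglia, which are the macrophages of the brain, and their RNA was sequenced. The 9 libraries comprised 3 of cells without treatment (Control), 3 of cells given LPS (lipopolysaccharide, a component of the bacterial outer membrane that activates the receptor TLR4) and 3 of cells given LPS together with an agent that the labels call Pilo (LPS+Pilo). The sources used here state neither dose nor duration. The libraries are called biological replicates without a statement that they came from separate cultures, so each p-value measures the spread between these libraries, which may be technical, and a lower value cannot be told apart from a change in the mix of cells or in RNA per cell.

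Secretory and membrane proteins fold in the ER with the help of the HSP70 chaperone BiP (gene Hspa5), the HSP90 chaperone GRP94 (Hsp90b1), the lectin chaperones calnexin and calreticulin and the protein disulfide isomerases. When unfolded proteins build up, the sensors IRE1 (Ern1), PERK (Eif2ak3) and ATF6 start the unfolded protein response. ATF6 and the factor XBP1, made from mRNA that IRE1 splices, switch on chaperone and ERAD genes, whereas PERK lowers translation and raises the factor ATF4 and its targets. In macrophages this response meets inflammatory signalling, since Toll-like receptors can engage IRE1 and XBP1. The deposited values are sums per gene and hold no splice forms or protein, so neither the splicing of Xbp1 mRNA nor the activity of a sensor was measured.

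The LPS-response genes Tnf, Ccl2, Nfkbia, Tnfaip3 and Il6 were all 5 higher in LPS than in Control. Among 14 microglia and macrophage markers 13 were tested, with 1 higher and 3 lower in LPS than in Control, where 4.12% and 3.64% of all genes were called, and 1 higher and 5 lower in LPS+Pilo than in Control, where 4.85% and 5.3% were. The microglial markers P2ry12 and Aif1 were at or near 0 to 1.36 TPM in every library, whereas Cd68, Tyrobp and Fcer1g were abundant. The summed level of the 14 was 4114 to 4343 TPM in Control, 3500 to 3543 TPM in LPS and 3185 to 3263 TPM in LPS+Pilo. Of the markers of plasma and B cells, which have a large ER, Jchain was listed at 0 in every library, while Sdc1 and Ighm brought the summed level to 83.4 to 92.5 TPM in Control, 66.4 to 77.3 TPM in LPS and 69.7 to 81.2 TPM in LPS+Pilo. The 5 astrocyte markers summed to at most 0.30 TPM. The 5 neuron markers summed to 164 to 367 TPM in Control, 306 to 403 TPM in LPS and 383 to 457 TPM in LPS+Pilo, nearly all from the tubulin gene Tubb3, with Rbfox3, Snap25 and Syt1 listed at 0. The 5 oligodendrocyte markers summed to 29.6 to 36.1 TPM, with Mog at 0, and the 5 T cell markers to 6.21 to 14.9 TPM, with Cd3e, Cd8a and Cd4 at 0. The part of these shifts in the results below was not tested.

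A pair of libraries stood apart for these genes. Control replicate 1 held the highest Control value for 31 of the 36 tested members, and LPS replicate 3 the lowest LPS value for 30 of 36. The same libraries were at the same ends for 62.4% and 66.3% of all tested genes. Control replicate 2 was the lowest of its group for 27 of the 36 members and for 60.1% of all tested genes. The members' coefficient of variation between replicates had a median of 18.1% in Control and 16.7% in LPS, against 7.30% in LPS+Pilo. It reached 56.5% for Ern1 in Control. The part of single libraries in this spread was not tested. Counts of called members are therefore also given with Control replicate 1 left out, with LPS replicate 3 left out and with both left out, the last a choice made after seeing that these libraries lay apart for the members. Leaving out the highest Control and the lowest LPS library by itself raises LPS against Control, so counts from that choice are not independent of it.

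**Figure D1:**
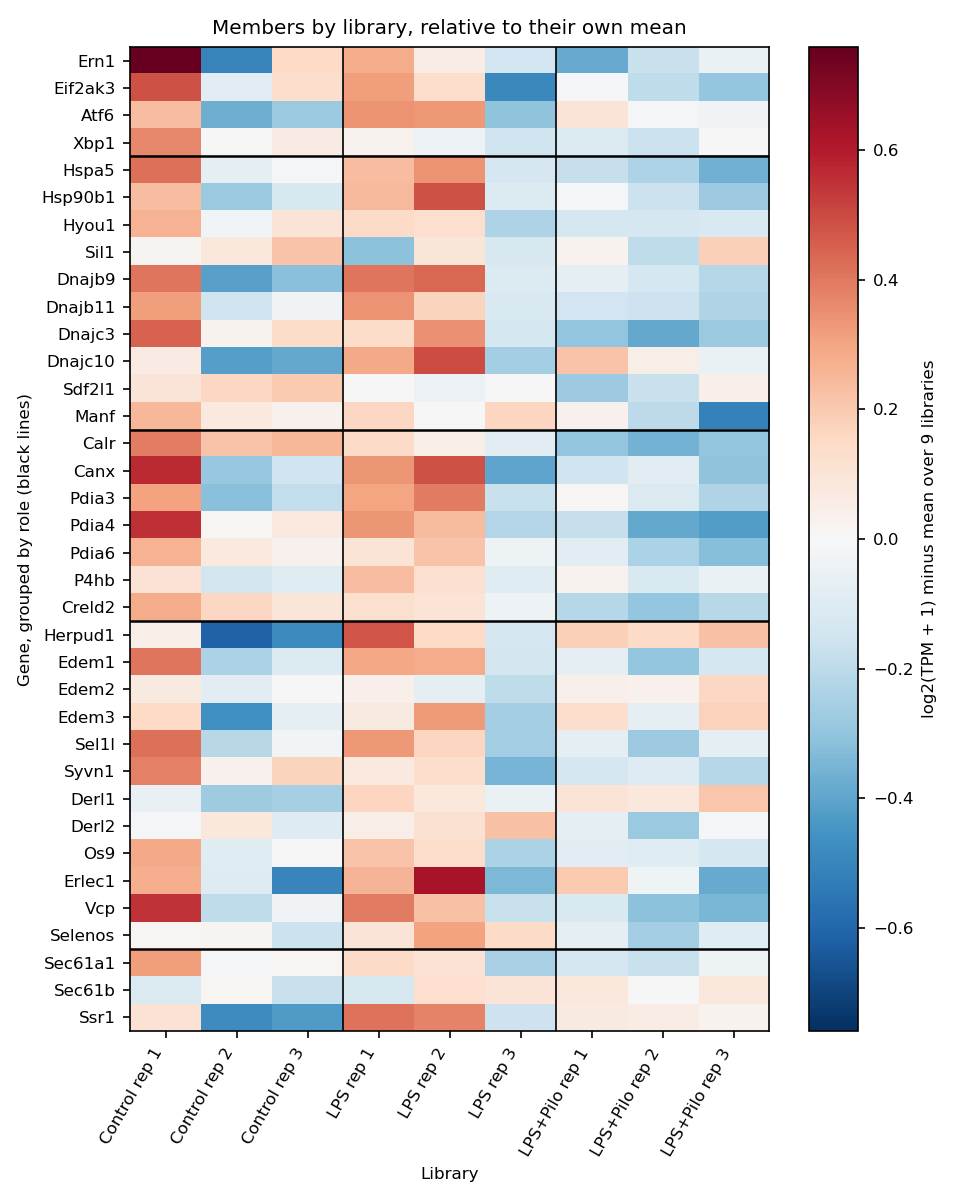
Each row is a tested gene and each column a library; the colour is log2(TPM + 1) minus the gene's own mean over the 9 libraries, and black lines part the roles and the groups. Control replicate 1 is the highest of its group in 31 of 36 rows and LPS replicate 3 the lowest of its group in 30 of 36, while most chaperone rows are below their mean in the 3 LPS+Pilo libraries.

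Many of these genes carry a shared DNA element before their start. The ER stress response element, CCAAT and CCACG with 9 bases of any kind between them, is bound by NF-Y at its CCAAT end and by ATF6 or XBP1 at its CCACG end. RefSeq promoter windows of 300 bases, 250 before and 50 after the start (build GRCm38.p6), were found for 30 of the 37 genes and searched on both strands for the exact element. It was present in 9 of the 30 genes with a window (30.0%) and in 37 of all 27025 genes with a window (0.137%). The 9 were Hspa5, Hsp90b1, Calr, Canx, Pdia6, Creld2, Dnajc3, Syvn1 and Derl3. The second form, ATTGG and CCACG with 1 base between them, was in the windows of Herpud1 and Dnajb11, against 0.0444% of all genes. The unfolded protein response element TGACGTGG was in the window of Vcp alone among the members, against 0.714% of all genes. The core CCACG, which is part of both ER stress response elements, was in 83.3% of member genes with a window and in 35.5% of all genes. A match is a match of letters in this window, not a measured binding site. The stretches below show the element with its flanks, 5′ to 3′ on the strand of the gene, for the genes whose values are described below. The match of Dnajb11 is not shown, as it begins at base 8 after the start. Capitals mark the fixed letters, and CGTGG with ATTGG is the element read on the other strand. Coordinates belong to GRCm38.p6.
Hspa5 (chr2:34772005-34772063, plus strand, element 65 to 47 bases before the start): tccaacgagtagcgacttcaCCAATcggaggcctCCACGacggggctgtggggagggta
Hsp90b1, distal (chr10:86705618-86705676, minus strand, 212 to 194 bases before): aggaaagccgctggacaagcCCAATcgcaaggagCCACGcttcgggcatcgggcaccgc
Hsp90b1, proximal (chr10:86705513-86705571, minus strand, 107 to 89 bases before): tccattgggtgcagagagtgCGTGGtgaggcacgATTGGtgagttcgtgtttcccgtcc
Calr (chr8:84847055-84847113, minus strand, 162 to 144 bases before): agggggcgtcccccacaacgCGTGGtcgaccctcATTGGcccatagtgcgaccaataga
Creld2 (chr15:88819500-88819558, plus strand, 126 to 108 bases before): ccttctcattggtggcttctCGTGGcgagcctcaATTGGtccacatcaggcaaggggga
Canx (chr11:50325780-50325838, minus strand, 145 to 127 bases before): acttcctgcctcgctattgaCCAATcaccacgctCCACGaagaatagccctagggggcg
Pdia6 (chr12:17266471-17266529, plus strand, 98 to 80 bases before): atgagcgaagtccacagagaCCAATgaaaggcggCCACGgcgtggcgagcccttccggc
Dnajc3 (chr14:118937807-118937865, plus strand, 105 to 87 bases before): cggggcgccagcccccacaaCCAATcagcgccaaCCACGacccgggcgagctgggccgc
Syvn1 (chr19:6046512-6046570, plus strand, 44 to 26 bases before): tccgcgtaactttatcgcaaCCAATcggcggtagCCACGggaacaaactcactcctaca
Herpud1, second form (chr8:94386357-94386407, plus strand, 52 to 42 bases before): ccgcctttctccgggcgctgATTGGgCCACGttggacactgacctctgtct
Vcp, unfolded protein response element (chr4:43000594-43000641, minus strand, 114 to 107 bases before): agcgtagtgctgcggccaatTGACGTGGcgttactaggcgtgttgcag

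Differences between groups were fitted in limma on log2(TPM + 1), and a gene was called at a Benjamini-Hochberg adjusted p under 0.05 over all 11260 tested genes. Differences below are on that log2 scale, with the fitted standard error (SE). The comparisons share libraries with each other, so their values are set side by side and are not independent.

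LPS alone changed none of the 36 tested members past the threshold, where 7.76% of all tested genes were called, 4.12% higher and 3.64% lower. With no adjustment (limma p under 0.05) 3 members were higher and 1 lower, against 12.3% and 10.4% of all genes (22.7% in either direction). The median difference over the members was 0.04, beside 0.07 over all tested genes (-0.05 to 0.19 over the members with single libraries left out), and 16 of 36 members lay below 0, against 41.1% of all genes. Replicates of LPS and Control did not overlap for 4 members, against 24.2% of all genes (11.2% higher and 13.1% lower). These were Derl1 and Selenos on the higher side and Calr and Sdf2l1 on the lower side. Without Control replicate 1 Herpud1 and Ssr1 passed as higher, and without LPS replicate 3 Ssr1 did, so 2 and 1 members were called. Of all genes 998 (671 higher) and 1020 (688 higher) were called in these fits, beside 874 (464 higher) in the main fit. Without both libraries 15 members were called, all higher, together with 3586 of all genes (2930 higher), and the median over all genes moved to 0.20 beside 0.28 over the members.

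With LPS+Pilo against LPS, the comparison that asks what Pilo added, 0 of 36 members were called, where 0.0444% of all genes were (0.00888% higher, 0.0355% lower). With no adjustment (limma p under 0.05) 9 members were lower and 0 were higher, against 3.72% and 3.04% of all genes (6.76% in either direction). The fitted difference was below 0 for 30 of 36 members and for 60.3% of all genes, with a median of -0.23 beside -0.05. Replicates did not overlap for 8 members, all lower in LPS+Pilo, against 12.2% of all genes (5.58% higher, 6.63% lower): Hspa5, Dnajb11, Dnajc3, Calr, Pdia6, Creld2, Derl2 and Selenos. Leaving out LPS replicate 3, alone or with Control replicate 1, moved the members' median to -0.34 with 32 members below 0 and still 0 called. With LPS replicate 1 or 2 left out the median was -0.13 and -0.14, with 28 and 28 members below 0.

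With LPS+Pilo against Control 2 members fell, Calr and Creld2, and 0 rose, where 10.2% of all genes were called (5.3% lower, 4.85% higher). With no adjustment (limma p under 0.05) 8 members were lower and 2 were higher, against 12.3% and 11.6% of all genes (24% in either direction). The median over the members was -0.19, beside 0.02 over all tested genes, and 27 of 36 lay below 0, against 47.1% of all genes. Without Control replicate 1 the members' median was -0.06 and 21 lay below 0. Replicates did not overlap for 14 members (30.5% of all genes), 12 of them lower (15.6%) and 2 higher, Herpud1 and Derl1 (14.9%). Without Control replicate 1 Calr and Creld2 were joined by Derl1 and Herpud1 as higher, with 1018 of all genes called (597 higher). Without LPS replicate 3 as well they were also joined by Ssr1 and Dnajc10 as higher and Pdia4 as lower. That fit called 7 members and 1967 of all genes (1274 higher). Without LPS+Pilo replicate 2 Calr alone passed. Centring each library on its median over all genes gave 9 called members, 7 lower and 2 higher. Quantile normalization gave 8, of which 7 were lower. All genes called rose too, from 1143 in the main fit to 1564 under median centring (818 lower, 746 higher). Under quantile normalization they numbered 1726 (990 lower, 736 higher).

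**Figure D2:**
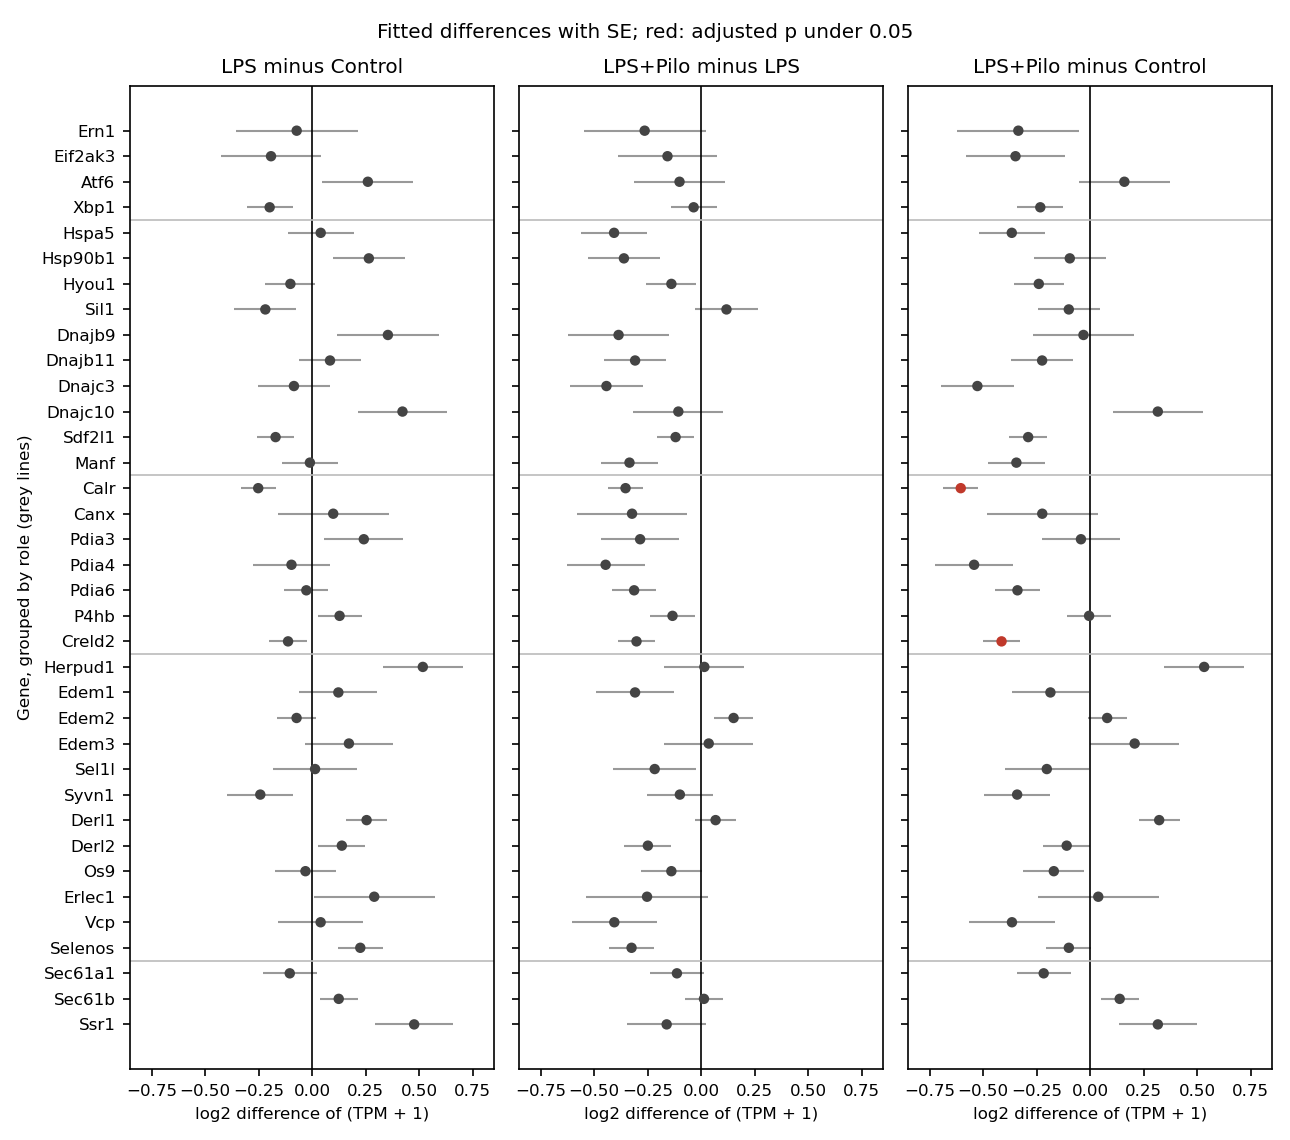
Points are fitted differences of log2(TPM + 1) with their SE for the 36 tested members in the 3 comparisons, grouped by role; red points passed an adjusted p of 0.05. The only red points are Calr and Creld2 in LPS+Pilo minus Control, at -0.60 and -0.41, and 30 of 36 points lie below 0 in LPS+Pilo minus LPS.

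The stress sensors were weakly expressed and did not pass in any comparison. Ern1, the kinase and RNase that splices Xbp1 mRNA, was at 4.81, 1.42 and 2.82 TPM in Control, 3.18, 2.57 and 2.10 TPM in LPS and 1.64, 2.05 and 2.32 TPM in LPS+Pilo (replicates 1, 2 and 3 in this order throughout). The Control values of Ern1 spanned all others. Its difference was -0.07 ± 0.28 for LPS minus Control, -0.26 ± 0.28 for LPS+Pilo minus LPS and -0.34 ± 0.28 for LPS+Pilo minus Control (adjusted p = 0.907, 0.904 and 0.533).

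Eif2ak3, which encodes the translation-limiting kinase PERK, was at 3.93, 2.33 and 2.87 TPM in Control, 3.39, 2.87 and 1.51 TPM in LPS and 2.48, 2.08 and 1.87 TPM in LPS+Pilo. The groups overlapped, and the difference between LPS+Pilo and Control was -0.35 ± 0.23 (adjusted p = 0.414). Atf6, the gene of the membrane-bound factor ATF6, was at 10.7, 6.71 and 7.19 TPM in Control, 11.6, 11.5 and 7.07 TPM in LPS and 9.65, 8.90 and 8.80 TPM in LPS+Pilo. Its differences from Control were 0.26 ± 0.21 in LPS and 0.16 ± 0.21 in LPS+Pilo (adjusted p = 0.502 and 0.709).

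Xbp1 was far more abundant than the sensors, at 133, 103 and 108 TPM in Control, 105, 99.9 and 92.8 TPM in LPS and 95.8, 91.8 and 103 TPM in LPS+Pilo. Each LPS+Pilo value lay below every Control value, by little at the closest pair (102.71 and 102.99 TPM), while LPS and LPS+Pilo overlapped. The differences were -0.20 ± 0.11 for LPS and -0.23 ± 0.11 for LPS+Pilo against Control (adjusted p = 0.308 and 0.225) and -0.03 ± 0.11 between the LPS groups (adjusted p = 0.978).

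Among the HSP70 and HSP90 chaperones and their cofactors 0 of 10 tested genes were called in any comparison. Of all genes 7.76% were called in LPS against Control, 0.0444% in LPS+Pilo against LPS and 10.2% in LPS+Pilo against Control. In LPS+Pilo 9 of the 10 lay below 0 against LPS and against Control, where 60.3% and 47.1% of all genes did. Hspa5, the gene of BiP, which binds unfolded chains and holds the sensors inactive, was at 211, 150 and 156 TPM in Control, 186, 200 and 144 TPM in LPS and 140, 134 and 122 TPM in LPS+Pilo. The 3 LPS+Pilo values were the lowest of the 9, and Control and LPS overlapped. The difference was 0.04 ± 0.15 for LPS minus Control (adjusted p = 0.903), -0.41 ± 0.15 for LPS+Pilo minus LPS (adjusted p = 0.630) and -0.37 ± 0.15 for LPS+Pilo minus Control (adjusted p = 0.184), the last passing only where libraries were centred on their medians (adjusted p = 0.0382).

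Hsp90b1, the gene of the ER form of HSP90, which folds Toll-like receptors and integrins, was at 139, 97.4 and 109 TPM in Control, 141, 166 and 110 TPM in LPS and 117, 106 and 97.7 TPM in LPS+Pilo. All groups overlapped for Hsp90b1. The differences were 0.27 ± 0.17 for LPS minus Control and -0.36 ± 0.17 for LPS+Pilo minus LPS (adjusted p = 0.388 and 0.753).

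Dnajc3, which encodes a BiP co-chaperone also known as an inhibitor of PERK, was at 5.63, 3.96 and 4.36 TPM in Control, 4.37, 5.20 and 3.44 TPM in LPS and 2.96, 2.72 and 3.00 TPM in LPS+Pilo. The LPS+Pilo libraries were the lowest of the 9. The difference was -0.44 ± 0.17 against LPS (adjusted p = 0.641) and -0.53 ± 0.17 against Control (adjusted p = 0.0869), the latter passing under median centring (adjusted p = 0.00991) and quantile normalization (adjusted p = 0.00329).

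Sdf2l1, a partner of the ER HSP40 proteins, was at 222, 231 and 238 TPM in Control, 206, 200 and 206 TPM in LPS and 171, 184 and 212 TPM in LPS+Pilo. Every Control value of Sdf2l1 exceeded every LPS and LPS+Pilo value, and it varied least between replicates of any member in Control and in LPS. The difference was -0.17 ± 0.09 for LPS and -0.29 ± 0.09 for LPS+Pilo against Control (adjusted p = 0.287 and 0.0721). The latter passed without LPS+Pilo replicate 3 (adjusted p = 0.0331) and under quantile normalization (adjusted p = 0.0341).

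Dnajb9, a co-chaperone that restrains IRE1 and a common readout of XBP1, was at 3.51, 1.55 and 1.73 TPM in Control, 3.50, 3.60 and 2.17 TPM in LPS and 2.24, 2.10 and 1.93 TPM in LPS+Pilo. In Control, replicate 1 alone reached the range of LPS. The difference was 0.35 ± 0.24 for LPS minus Control and -0.39 ± 0.24 for LPS+Pilo minus LPS (adjusted p = 0.411 and 0.821). Dnajc10, which encodes an ER reductase that helps degradation, was at 10.5, 7.21 and 7.40 TPM in Control, 12.4, 14.5 and 8.19 TPM in LPS and 11.8, 10.3 and 9.58 TPM in LPS+Pilo. Its difference of 0.42 ± 0.21 for LPS minus Control was among the 3 highest of the members and did not pass (adjusted p = 0.269).

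Sil1, the nucleotide exchange factor of BiP, was at 13.3, 13.9 and 15.4 TPM in Control, 10.4, 14.0 and 11.97 TPM in LPS and 13.3, 11.4 and 15.0 TPM in LPS+Pilo, with all groups overlapping. It was among the 3 lowest members in LPS minus Control (-0.22 ± 0.15, adjusted p = 0.407). Manf, a secreted protein of the stressed ER, had group means of 227 ± 18.7, 225 ± 14.0 and 180.0 ± 33.7 TPM (SD, n = 3) in Control, LPS and LPS+Pilo. The LPS+Pilo value of replicate 3, 146 TPM, was the lowest. The highest LPS+Pilo value of Manf, 212.94 TPM, lay barely below its lowest Control value, 212.97 TPM. Hyou1, a large HSP70 relative, had means of 81.3 ± 8.26, 76.0 ± 10.8 and 68.5 ± 0.582 TPM, and Dnajb11, an HSP40 partner of BiP, had 62.2 ± 10.9, 65.9 ± 10.5 and 52.6 ± 1.56 TPM. Neither passed, with adjusted p of 0.254 and 0.394 for LPS+Pilo against Control.

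The lectin chaperones and disulfide isomerases held both called members. Calr, which encodes the lectin chaperone and calcium store protein calreticulin, was the most abundant member, at 790, 700.0 and 718 TPM in Control, 666, 621 and 569 TPM in LPS and 491, 469 and 489 TPM in LPS+Pilo. No value of any group overlapped with another group, and the order was Control, LPS, LPS+Pilo. Its mean TPM fell by 34.4% from Control to LPS+Pilo, a difference of -0.60 ± 0.08 (adjusted p = 0.00182, lower in 3 of 3 libraries, 0.00105 to 0.0115 over the alternatives). The steps of Calr between did not pass, at -0.25 ± 0.08 for LPS minus Control (adjusted p = 0.105, 0.0368 under median centring) and -0.35 ± 0.08 for LPS+Pilo minus LPS (adjusted p = 0.364).

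Creld2, an ER-resident protein with isomerase activity, was at 67.4, 61.7 and 59.1 TPM in Control, 60.3, 59.5 and 54.0 TPM in LPS and 47.6, 45.0 and 47.7 TPM in LPS+Pilo. The 3 LPS+Pilo libraries lay below all others, and Control and LPS overlapped. Creld2 fell by 25.4% in mean TPM from Control to LPS+Pilo, a difference of -0.41 ± 0.09 (adjusted p = 0.0152, lower in 3 of 3 libraries). Over the alternatives the adjusted p of Creld2 was 0.0035 to 0.0634, and the call was lost without LPS+Pilo replicate 2 (0.0634). The difference between LPS+Pilo and LPS was -0.30 ± 0.09 (adjusted p = 0.502) and between LPS and Control -0.11 ± 0.09 (adjusted p = 0.477).

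Pdia4, a disulfide isomerase with several thioredoxin-like domains, was at 60.01, 40.7 and 42.7 TPM in Control, 51.3, 47.9 and 34.5 TPM in LPS and 35.8, 30.6 and 29.9 TPM in LPS+Pilo. Each LPS+Pilo value lay below every Control value, and LPS replicate 3 lay within the LPS+Pilo range. Its difference of -0.45 ± 0.18 was the lowest of the members in LPS+Pilo minus LPS (adjusted p = 0.691). Against Control it was -0.54 ± 0.18 (adjusted p = 0.0990), and this passed with the replicate number as a block (adjusted p = 0.0336), under median centring (0.0161) and under quantile normalization (0.0270).

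Pdia6, an isomerase that attenuates IRE1, had means of 129 ± 11.5, 126 ± 11.2 and 101 ± 8.78 TPM (SD, n = 3) in Control, LPS and LPS+Pilo. Its LPS+Pilo libraries lay below the other 6, and the difference of -0.34 ± 0.10 from Control did not pass (adjusted p = 0.0717). It passed with the replicate block (adjusted p = 0.0460), under median centring (0.0167) and under quantile normalization (0.0288). P4hb, the founding disulfide isomerase, had 300.4 ± 28.1, 329 ± 36.9 and 299 ± 14.4 TPM. Pdia3, the partner of calnexin and calreticulin, had 119.7 ± 28.5, 141 ± 28.0 and 114 ± 9.50 TPM, and Canx, the gene of calnexin, 110 ± 37.6, 118 ± 35.4 and 91.3 ± 7.05 TPM. The values of P4hb, Pdia3 and Canx overlapped between all groups.

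**Figure D3:**
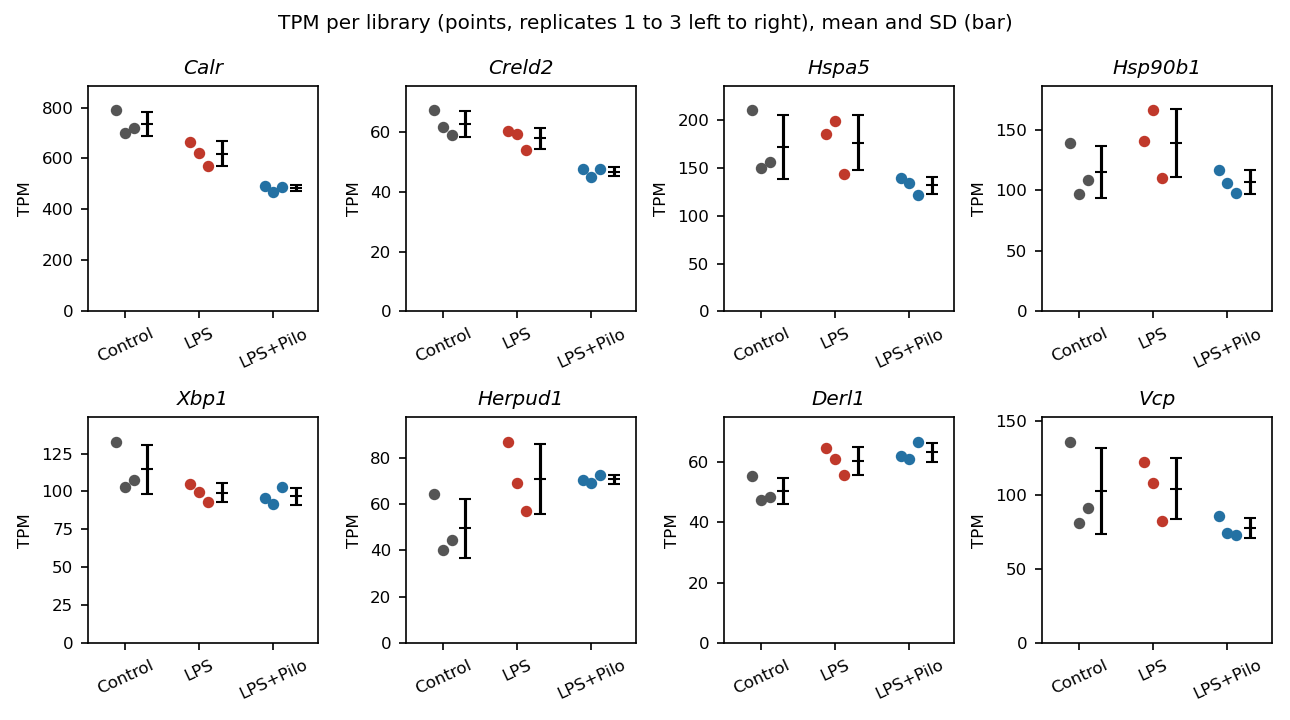
Points are TPM of 8 members in each library (replicates 1 to 3 from left to right) with the group mean and SD as a bar, on axes that start at 0. Calr steps down without overlap from 700 to 790 TPM in Control to 469 to 491 TPM in LPS+Pilo, whereas the groups overlap for Hsp90b1 and Vcp.

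Of 12 tested ERAD members 0 were called in any comparison. Of all genes 7.76% were called in LPS against Control, 0.0444% in LPS+Pilo against LPS and 10.2% in LPS+Pilo against Control. In LPS against Control 3 of the 12 members lay below 0, where 41.1% of all genes did. In LPS+Pilo against LPS 8 of the 12 did, near the 60.3% of all genes. Herpud1, a membrane scaffold of the degradation complex, had the highest fold change of all members in both comparisons with Control. It was at 64.1, 40.3 and 44.3 TPM in Control, 87.0, 69.1 and 56.9 TPM in LPS and 70.6, 68.9 and 72.6 TPM in LPS+Pilo. Every LPS+Pilo library exceeded every Control library, and Control replicate 1 exceeded LPS replicate 3.

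The difference of Herpud1 from Control was 0.52 ± 0.19 in LPS (adjusted p = 0.135) and 0.53 ± 0.19 in LPS+Pilo (adjusted p = 0.111). Without Control replicate 1 Herpud1 rose by 0.71 in LPS and by 0.73 in LPS+Pilo (adjusted p = 0.0251 and 0.0204), and under median centring it passed in LPS+Pilo (adjusted p = 0.0366). Between the LPS groups it was 0.02 ± 0.19.

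Derl1, a rhomboid-like protein of the retrotranslocation channel, was at 55.3, 47.5 and 48.3 TPM in Control, 64.5, 60.8 and 55.5 TPM in LPS and 61.9, 60.9 and 66.7 TPM in LPS+Pilo. Each treated library of Derl1 exceeded every Control library, LPS replicate 3 by little. The difference was 0.25 ± 0.10 in LPS and 0.32 ± 0.10 in LPS+Pilo (adjusted p = 0.15 and 0.0656). The latter passed without Control replicate 1 (0.0394), under median centring (0.0292) and under quantile normalization (0.0251).

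Sel1l and Syvn1 encode the adaptor and the ubiquitin ligase of the central ERAD complex. Sel1l was at 19.3, 12.2 and 14.0 TPM in Control, 18.1, 16.1 and 11.7 TPM in LPS and 13.5, 11.6 and 13.4 TPM in LPS+Pilo, with all groups overlapping. Syvn1 was at 17.2, 13.3 and 14.7 TPM in Control, 13.8, 14.4 and 9.94 TPM in LPS and 11.8, 12.1 and 11.1 TPM in LPS+Pilo. The LPS+Pilo values of Syvn1 lay below all Control values.

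Syvn1 differed from Control by -0.24 ± 0.15 in LPS and -0.34 ± 0.15 in LPS+Pilo (adjusted p = 0.390 and 0.216). Both passed under quantile normalization (adjusted p = 0.0269 and 0.0193), and the latter under median centring (0.0381). The differences of Sel1l were 0.01 ± 0.20 and -0.20 ± 0.20 (adjusted p = 0.973 and 0.591).

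Vcp, the ATPase that pulls substrates out of the membrane, was at 136, 80.9 and 90.9 TPM in Control, 122, 108 and 82.2 TPM in LPS and 85.6, 74.5 and 72.7 TPM in LPS+Pilo. Control replicate 1 held the highest value of all libraries, and the groups overlapped. The differences were 0.04 ± 0.20 for LPS minus Control, -0.41 ± 0.20 for LPS+Pilo minus LPS and -0.37 ± 0.20 for LPS+Pilo minus Control (adjusted p = 0.928, 0.771 and 0.305).

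Edem2, a mannosidase-like protein that marks glycoproteins for degradation, was at 53.5, 48.2 and 51.2 TPM in Control, 52.4, 48.6 and 44.5 TPM in LPS and 52.5, 52.3 and 57.0 TPM in LPS+Pilo. Its 0.15 ± 0.09 was the highest difference of any member in LPS+Pilo minus LPS (adjusted p = 0.818), followed by Sil1 (0.12) and Derl1 (0.07). Its relatives Edem1 and Edem3 were at 28.5 ± 7.27 and 1.30 ± 0.478 TPM in Control (SD, n = 3) and did not pass in any comparison.

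The lectin Os9, which hands glycoproteins to the ligase, had 28.1 ± 4.14, 27.6 ± 4.61 and 24.7 ± 0.497 TPM in Control, LPS and LPS+Pilo, and its relative Erlec1 had 3.82 ± 1.28, 4.97 ± 1.92 and 3.89 ± 0.962 TPM. Selenos, a selenoprotein that recruits VCP, had 25.5 ± 1.84, 30.0 ± 2.37 and 23.7 ± 1.70 TPM, and Derl2 had 23.5 ± 1.51, 26.0 ± 1.67 and 21.7 ± 2.24 TPM. For both Selenos and Derl2 every LPS+Pilo value lay below every LPS value, at -0.32 ± 0.11 and -0.25 ± 0.11 (adjusted p = 0.533 and 0.728).

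Of the 3 translocon genes 0 were called in any comparison, beside the same shares of all genes (7.76%, 0.0444% and 10.2%). Sec61b, a small subunit of the channel, was at 225, 246 and 216 TPM in Control, 224, 266 and 260.5 TPM in LPS and 257, 242 and 256 TPM in LPS+Pilo. It overlapped between groups and was 0.12 ± 0.09 and 0.14 ± 0.09 above Control (adjusted p = 0.441 and 0.395). Ssr1, a subunit of the translocon-associated complex, was at 88.2, 58.4 and 60.4 TPM in Control, 109, 106 and 73.2 TPM in LPS and 85.7, 84.95 and 83.3 TPM in LPS+Pilo.

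The difference of Ssr1 was 0.48 ± 0.18 for LPS minus Control (adjusted p = 0.158) and passed at 0.67 with Control replicate 1 left out (adjusted p = 0.0329) and at 0.66 with LPS replicate 3 left out (adjusted p = 0.0395). For LPS+Pilo minus Control it was 0.32 ± 0.18 (adjusted p = 0.340). Sec61a1, the channel itself, had means of 141 ± 18.6, 132 ± 19.1 and 121 ± 5.60 TPM (SD, n = 3). Every LPS+Pilo value of Sec61a1 lay below every Control value, at -0.22 ± 0.13 (adjusted p = 0.344).

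Summed over the members of a role, the levels differed most for the chaperone roles. The 7 lectin chaperones and isomerases together held 1697, 1389 and 1431 TPM in Control, 1550, 1508 and 1249 TPM in LPS and 1216, 1141 and 1147 TPM in LPS+Pilo, a sum to which Calr gave the largest part. The 10 HSP70 and HSP90 chaperones and cofactors held 1017, 851 and 883 TPM in Control, 955, 962 and 838 TPM in LPS and 792, 753 and 727 TPM in LPS+Pilo. In both roles the LPS+Pilo libraries lay below the other 6. The 13 ERAD genes held 347 to 472 TPM in Control, 369 to 482 TPM in LPS and 374 to 401 TPM in LPS+Pilo, and the 3 translocon genes 409 to 476, 443 to 513 and 443 to 467 TPM. In these 2 roles the groups overlapped. All 37 genes took 0.313% to 0.381% of the total TPM in Control, 0.300% to 0.359% in LPS and 0.282% to 0.298% in LPS+Pilo. These sums are descriptions and were not tested.

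**Figure D4:**
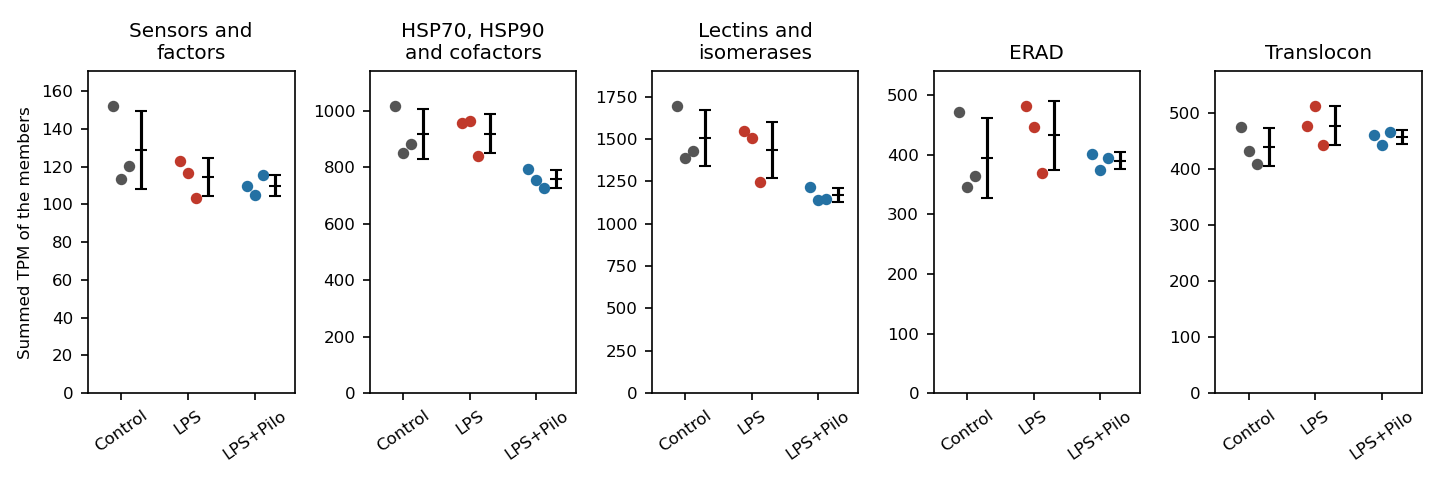
Points are the summed TPM of the members of each role per library (replicates 1 to 3 from left to right), with the group mean and SD as a bar, on axes that start at 0. In LPS+Pilo the lectin and isomerase sum is 1141 to 1216 TPM and the HSP70 and HSP90 sum 727 to 792 TPM, below all other libraries, while the ERAD and translocon sums overlap.

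The 8 tested members with the ER stress response element in the windows printed above were all below 0 in LPS+Pilo against LPS (median -0.34) and against Control (median -0.35), and 5 of 8 were in LPS against Control (median -0.06). The 21 tested members whose windows lack it had medians of -0.16, -0.11 and 0.12 in these comparisons, with 17, 15 and 7 below 0. Without Control replicate 1 Hsp90b1, which carries the element, lay above 0 in LPS+Pilo against Control, at 0.050. Both called genes, Calr and Creld2, carry the element. All tested carriers but Syvn1 belong to the chaperone roles. The HSP70 and HSP90 role had medians of -0.32 against LPS and -0.23 against Control, and the lectin and isomerase role -0.31 and -0.34. Element and role therefore overlap, and their parts in these values were not tested. The 4 other tested genes of the table with this element had medians of 0.0075, -0.09 and 0.0079, with Gm20560 among them called higher in both comparisons with Control. Over all tested genes the medians were -0.05, 0.02 and 0.07, with 60.3%, 47.1% and 41.1% below 0. These medians are given without a test, and the elements were chosen with earlier results of these data known. Derl3, which also carries the element, was not tested.

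Targets of the PERK and ATF4 branch are not members, and their values are set beside those of the members without a test of the difference. In LPS against Control 7 of 20 tested targets rose and 0 fell, and in LPS+Pilo against Control 13 rose and 0 fell, where 4.12% and 4.85% of all genes were called higher. In LPS+Pilo against LPS 0 of 20 passed, where 0.0444% of all genes did. In that comparison 4 of 20 targets lay below 0, against 60.3% of all genes, with a median of 0.17 beside -0.05. With no adjustment (limma p under 0.05) 2 targets were higher and 0 lower, against 3.04% and 3.72% of all genes. The targets' median difference was 0.54 for LPS and 0.61 for LPS+Pilo against Control, beside 0.04 and -0.19 for the ER chaperone and degradation members. Some of these targets, such as Slc7a11 and Nupr1, also respond to other stress pathways.

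Trib3, a pseudokinase induced by ATF4, was at 41.3, 25.7 and 29.3 TPM in Control, 93.3, 71.1 and 59.0 TPM in LPS and 110, 89.1 and 126 TPM in LPS+Pilo. It rose by 1.19 ± 0.21 and 1.74 ± 0.21 (adjusted p = 0.00879 and 8.96e-04), with no overlap between treated and Control libraries. Slc7a11, the cystine transporter gene, was at 1.79, 0.66 and 0.78 TPM in Control, 11.4, 9.48 and 4.71 TPM in LPS and 9.63, 9.51 and 9.17 TPM in LPS+Pilo. It rose by 2.16 ± 0.29 and 2.37 ± 0.29 (adjusted p = 0.00195 and 9.37e-04). Nupr1, a stress-induced chromatin protein gene, rose by 0.91 ± 0.12 in LPS, from a mean of 11.2 ± 0.730 to 21.8 ± 2.58 TPM (adjusted p = 0.00223).

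Ddit3, which encodes the factor CHOP, was at 13.1, 8.14 and 6.73 TPM in Control, 18.5, 19.2 and 15.8 TPM in LPS and 26.3, 19.3 and 21.9 TPM in LPS+Pilo. All treated libraries exceeded all Control libraries. It rose by 0.91 ± 0.21 in LPS (adjusted p = 0.0305, 0.0920 without Control replicate 2, 0.114 without Control replicate 3, 0.0949 and 0.108 without LPS replicate 1 and 2, 0.0548 without LPS+Pilo replicate 3) and by 1.23 ± 0.21 in LPS+Pilo (adjusted p = 0.00633). Chac1, a glutathione-degrading enzyme gene, rose by 1.75 ± 0.37 in LPS+Pilo against Control (adjusted p = 0.0154, 0.0628 without Control replicate 3, 0.0542 and 0.0639 without LPS+Pilo replicate 2 and 3), from 6.05 ± 3.99 to 20.7 ± 3.19 TPM.

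Among 26 tested ER oxidoreductases and folding enzymes outside the members 1 rose and 1 fell in LPS, near the 4.12% and 3.64% of all genes. Against Control 2 rose and 4 fell in LPS+Pilo, where 4.85% and 5.3% of all genes did. Erp29, which encodes a redox-inactive member of the isomerase family, was at 291, 288 and 291 TPM in Control, 184, 172 and 165 TPM in LPS and 158, 138 and 140.0 TPM in LPS+Pilo. The 3 groups did not overlap. It fell by 0.74 ± 0.08 in LPS and by 1.00 ± 0.08 in LPS+Pilo (adjusted p = 4.95e-04 and 5.42e-05) and passed in every alternative run for both comparisons.

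Ero1l, the oxidase that recharges the isomerases, was at 14.2, 8.31 and 9.46 TPM in Control, 23.9, 23.5 and 17.6 TPM in LPS and 22.1, 21.4 and 14.6 TPM in LPS+Pilo. It rose by 0.98 ± 0.22 in LPS (adjusted p = 0.0266) and by 0.82 ± 0.22 in LPS+Pilo (adjusted p = 0.0455). The LPS call was lost on leaving out Control replicate 2 (0.0825), Control replicate 3 (0.102), LPS replicate 1 (0.0931) and LPS replicate 2 (0.0962). The LPS+Pilo call was lost on leaving out Control replicate 2 (0.124), Control replicate 3 (0.147), LPS replicate 1 (0.0618), LPS replicate 2 (0.0636), LPS+Pilo replicate 1 (0.155) and LPS+Pilo replicate 2 (0.162).

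Cnpy2 and Cnpy3 encode saposin-like ER proteins, the latter a co-chaperone of GRP94 for Toll-like receptors. Cnpy2 fell by 0.50 ± 0.09 in LPS+Pilo against Control, from 67.1 ± 4.51 to 47.3 ± 2.48 TPM (adjusted p = 0.00692). Cnpy3 fell by 0.36 ± 0.08, from 78.2 ± 4.12 to 60.7 ± 3.48 TPM (adjusted p = 0.0225). The Cnpy3 call was lost without Control replicate 2 (0.0652) or 3 (0.105), without LPS+Pilo replicate 1 (0.0848) or 2 (0.0717) and under median centring (0.0848).

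Of 37 tested ERAD genes outside the members, the ubiquitin-conjugating enzyme gene Ube2g2 fell in LPS by 0.41 ± 0.10, from 78.5 ± 4.97 to 58.9 ± 6.31 TPM (adjusted p = 0.0324), and was the only one called in that comparison, where 7.76% of all genes were. Ube2g2 missed the threshold with any of 6 libraries left out, namely Control replicate 2 (0.108), Control replicate 3 (0.131), LPS replicate 1 (0.0895), LPS replicate 2 (0.129), LPS+Pilo replicate 2 (0.0542) and LPS+Pilo replicate 3 (0.0567). Ube2j2, another such enzyme of the ER membrane, rose in LPS+Pilo against Control by 0.40 ± 0.08, from 175 ± 14.3 to 231 ± 5.37 TPM (adjusted p = 0.0129, 0.0515 without Control replicate 3 and 0.0541 without LPS+Pilo replicate 3), and was the only one of the 37 called there, where 10.2% of all genes were. Of 39 other translocation and N-glycosylation genes, 30 genes of ER to Golgi transport and 21 other regulators of the unfolded protein response 0 were called in any of the 3 comparisons. Of all genes 7.76% were called in LPS against Control, 0.0444% in LPS+Pilo against LPS and 10.2% in LPS+Pilo against Control. With no adjustment (limma p under 0.05) the translocation and glycosylation list had 5 higher and 0 lower genes in LPS against Control, the transport list 2 and 2 and the regulator list 3 and 0, where 12.3% of all genes were higher and 10.4% lower. The lists had, in LPS+Pilo against LPS, 0 higher and 2, 3 and 0 lower genes, against 3.04% and 3.72% of all genes. They had, in LPS+Pilo against Control, 0, 0 and 2 higher and 2, 3 and 0 lower genes, against 11.6% and 12.3%.

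**Figure D5:**
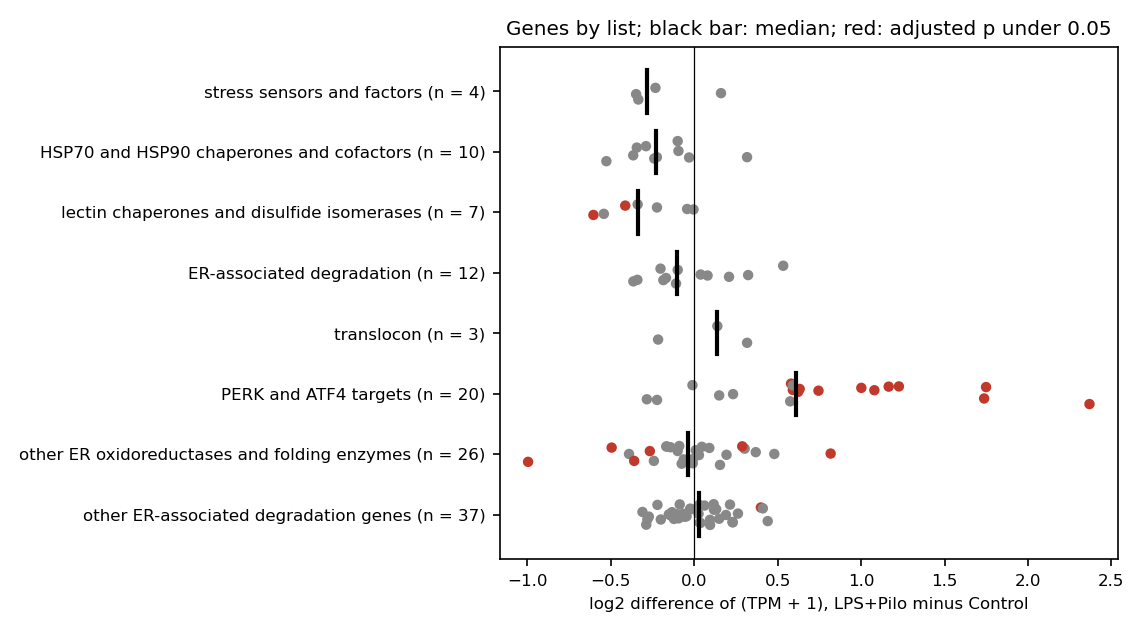
Points are fitted differences of log2(TPM + 1) between LPS+Pilo and Control for the tested genes of 8 lists, black bars are list medians and red points passed an adjusted p of 0.05. The PERK and ATF4 targets have a median of 0.61 with 13 of 20 called higher, while the lectin chaperones and isomerases lie at -0.60 to -0.0048, with 2 of 7 called lower.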

How the data were processed

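RNA from 9 BV2 libraries was extracted with TRIzol and sequenced after TruSeq preparation, per the labels' protocols. The authors deposited 1 table of TPM per gene and library, rounded to 2 decimals. The submitters' processing notes name fastp 0.19.5, STAR 2.7.1a, DESeq2 1.24.0 and the build GRCm39. How TPM were computed, and with which annotation, strand setting and rule for multiply mapped reads, is not given in the sources used here, so reads of paralogs, pseudogenes and overlapping genes may be misassigned. TPM hold no counts, so depth is unknown and the spread of 3 libraries is the precision used.

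Symbols came by Ensembl identifier from GENCODE M21 (52081 genes matched). Genes that reached 1 TPM in 3 or more libraries were fitted as log2(TPM + 1), which understates changes of low genes, in limma 3.58.1 (R 4.3.3), with all 9 libraries, a mean per group, trended variances and 6 residual degrees of freedom. Tests were two-sided. The fit was tested on simulated data with independent errors, which hold no shift shared by the genes of a library. Alternatives were other pseudocounts (0.1 and 0.5), filters, scalings, variance settings, a replicate block, each library left out and, added after seeing the data, Control replicate 1 and LPS replicate 3 left out together.

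Members, lists, elements and the naming rule were chosen with earlier results of these data known. The rule gave values for called members, the 3 largest increases and decreases per comparison and 14 fixed members, and for up to 4 called genes per pathway list. No list was tested as a set. Promoter windows are RefSeq's on GRCm38.p6, and no coordinates were combined with the TPM. The value of 1 marker gene is not reported here.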

Additional observations from a re-analysis of the deposited data

How the results depend on the processing

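Depth is unknown, and 3 libraries per group limit all calls. Of the 19 alternatives per comparison 18 were planned. The other, leaving out Control replicate 1 and LPS replicate 3 together, was chosen after seeing the data, from how the members' own values lay, so its calls carry that choice. It gave 3586 genes called in LPS against Control, 18 in LPS+Pilo against LPS and 1967 in LPS+Pilo against Control, with 15, 0 and 7 members called.

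Members called in LPS against Control (0) numbered 1 under quantile normalization (Syvn1, lower), 1 under median centring (Calr, lower) and 0 to 2 with single libraries left out. In LPS+Pilo against LPS 0 were called in each of the 19. In LPS+Pilo against Control (2) they numbered 8 under quantile normalization, 9 under median centring, 4 with the replicate block and 1 to 4 with single libraries left out. Calr passed in all 19 and Creld2 in all but the fit without LPS+Pilo replicate 2.

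All genes called in LPS against Control (464 higher, 410 lower) numbered 1516 under quantile normalization (614 higher, 902 lower), 1329 under median centring (638 and 691), 486 with only the 2 groups compared and 414 to 1020 with single libraries left out, with 688 higher and 332 lower without LPS replicate 3. In LPS+Pilo against LPS (5) they numbered 1 with no filter, 1 at a mean TPM of at least 5, 1 under quantile normalization, 0 under median centring, 3 with only the 2 groups, 3 with no trend, 1 with the replicate block and 0 to 6 with single libraries left out. In LPS+Pilo against Control (1143) they numbered 1726 under quantile normalization and 642 to 1286 with single libraries left out. The cause of these shifts was not tested.

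Directions turned only for members that had not passed. In LPS minus Control Hspa5 was -0.015, Sel1l -0.041 and Vcp -0.015 under median centring, and Sel1l -0.078 under quantile normalization. In LPS+Pilo minus LPS Sec61b was -0.0090 under quantile normalization and Xbp1 0.0062 under median centring. Without both chosen libraries LPS minus Control was 0.16 for Dnajc3, 0.021 for Edem2, 0.20 for Eif2ak3, 0.35 for Ern1, 0.25 for Pdia4 and 0.0051 for Syvn1, LPS+Pilo minus LPS was -0.13 for Herpud1, and LPS+Pilo minus Control was 0.23 for Dnajb9 and 0.050 for Hsp90b1. With single libraries left out, LPS minus Control ran from -0.20 to 0.041 for Dnajc3, -0.36 to 0.047 for Eif2ak3, -0.39 to 0.24 for Ern1, -0.055 to 0.19 for Hspa5, -0.21 to 0.076 for Pdia4, -0.12 to 0.19 for Sel1l and -0.11 to 0.26 for Vcp. LPS+Pilo minus LPS ran from -0.31 to 0.0083 for Atf6, -0.32 to 0.053 for Dnajc10, -0.40 to 0.0077 for Eif2ak3, -0.13 to 0.17 for Herpud1, -0.064 to 0.060 for Sec61b and -0.082 to 0.0062 for Xbp1. LPS+Pilo minus Control ran from -0.18 to 0.23 for Dnajb9 and -0.21 to 0.050 for Hsp90b1. Of 1546 values of named genes under alternatives 1422 kept their direction and side of the threshold. Ddit3, Ero1l and Ube2g2 in LPS, and Ero1l and Chac1 in LPS+Pilo against Control, also lost their calls under at least 1 change of filter, scaling, samples or variance setting.

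The replicate numbers were not taken as pairs: across genes, deviations of same-numbered libraries from their group means correlated at 0.17, -0.23 and 0.16 between LPS and Control, and at -0.06 to 0.10 in the other comparisons. With the replicate block 808 genes were called in LPS against Control, 1064 in LPS+Pilo against Control and 1 in LPS+Pilo against LPS, and Pdia4 and Pdia6 joined Calr and Creld2.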

Other observations

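Cytosolic heat shock genes, the counterpart of the ER chaperones outside the secretory pathway, were not called in any comparison (0 of 21 tested genes). Of all genes 7.76% were called in LPS against Control, 0.0444% in LPS+Pilo against LPS and 10.2% in LPS+Pilo against Control. At an unadjusted p under 0.05 (limma) 3 of the 21 were higher in LPS than in Control. Of the same 21, 1 was lower in LPS+Pilo than in LPS, and 1 was higher and 1 lower in LPS+Pilo than in Control. Of all tested genes 12.3% were higher in the first comparison, 3.72% lower in the second, and 11.6% higher and 12.3% lower in the third. Their median difference was 0.28 for LPS minus Control, beside 0.07 over all tested genes, -0.15 for LPS+Pilo minus LPS, beside -0.05, and 0.10 for LPS+Pilo minus Control, beside 0.02. In LPS+Pilo minus LPS 20 of 21 lay below 0, against 60.3% of all tested genes.

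ER-phagy receptor genes, whose products deliver pieces of the ER to lysosomes, were likewise not called (0 of 9 tested), beside the same shares of all genes. At an unadjusted p under 0.05 (limma) 2 were lower in LPS than in Control, where 10.4% of all genes were, and 0 passed in the other comparisons. Their median difference was -0.12 for LPS minus Control and 0.09 for LPS+Pilo minus LPS, with 2 of 9 below 0 in the latter, against 60.3% of all tested genes. For ER to Golgi transport genes 29 of 30 lay below 0 in LPS+Pilo minus LPS, with a median of -0.16, beside 60.3% of all tested genes.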
